A study of Mus musculus with 10 samples.

Results

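The middle segment of the mouse 28S ribosomal RNA, from 28S nucleotide 1578 to 3153, was examined at every position. Its members were chosen by position alone, as positions 9700 to 11275 of the 45S pre-rRNA, which is 1576 of the 13400 45S positions in the tables (13591 with the U2 small nuclear RNA). A 28S nucleotide is the 45S position minus 8122. This numbering was not checked against a sequence, so base identities and guide pairings are not given.

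Ribosomal RNA carries many 2′-O-methyl groups, which fibrillarin adds at sites chosen by base pairing with box C/D small nucleolar RNAs (snoRNAs). In 28S they lie mostly in conserved cores of the large subunit, such as the peptidyl transferase centre. RiboMeth-seq reads them indirectly: alkali breaks RNA at unmodified riboses, a methylated ribose resists, and few reads then start or stop at it. The RiboMeth-seq score runs from 0 (as many ends as at the neighbours, or more) to 1 (no ends at all). It is 1 minus the ends at a position divided by the flanking mean, a weighted average over 6 neighbours upstream and 6 downstream.

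The study had 10 libraries in 5 groups of 2, labelled as biological replicates. One group was untreated mouse embryonic stem cells (ESCs), with the line given only as ESC. The other 4 groups were neurons made from ESCs with 1 ug/mL doxycycline, which induces Ngn2, a proneural transcription factor, and all of them took up an antisense oligonucleotide (ASO) at 10 uM, with RNA taken 72 to 96 hours later. In the Snord101 set, a Snord101 ASO was compared with a non-targeting ASO, and in the Snord89 set a Snord89 ASO was compared with separate non-targeting libraries. Snord101 and Snord89 are snoRNAs, and the aim was to find the positions they guide. Each snoRNA was targeted by 1 ASO, and its level was not analysed here. The tables hold rRNA and U2, so neuron and ESC identity could not be checked against marker genes.

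The Snord101 ASO is shown because it defines that treatment. It is a gapmer of 20 bases, with the central 10 bases, the part that directs RNase H to its target, in capitals and the 5 MOE-modified bases at each end in lower case, written 5′ to 3′:
Snord101 ASO: gggtaTCCGACAATTcaagt

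The region held 3203142 and 2753702 read ends in the ESC libraries and between 14814973 and 30801253 in the 8 neuron libraries. The median flanking mean was 466 and 387 ends in ESCs and from 5382 to 15630 in neurons. It was under 100 at 389 and 434 positions in the ESC libraries and at 0 in neurons, and most of these lay near the 3′ end: 124 of 197 positions from 2760 to 2956 and 140 of 197 from 2957 to 3153 had under 100 in at least 1 ESC library. The ESC table counts 5′ ends and the neuron tables add 5′ and 3′ ends, so ESC and neuron scores are given side by side and not tested. Pearson's r of scores across the region's positions, which are not independent replicates, was 0.939 to 0.987 within groups and 0.362 to 0.472 between ESC and neuron libraries. Control library A of the Snord101 set stood apart: its r with the Snord101 ASO libraries was 0.884 and 0.888, against 0.956 and 0.948 for control B. Ends of controls A and B differed with a chi-square per degree of freedom of 1014, against 18.8 to 149 for the other pairs of 1 group. This measure grows with depth, which differed between the pairs. Reads from PCR without molecular identifiers are not independent molecules.

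A shared footprint of 24 positions was found in the region. A position was called protected where all 6 libraries of ESCs and control neurons scored 0.75 or more on a flanking mean of 100 or more. They made up 1.52% of the region, against 1.10% (130 of 11824) of 45S positions outside it and 1.08% (17 of 1577) in 28S nucleotides 1 to 1577. These shares were not tested. The protected positions were 1630, 1673, 1801, 2007, 2008, 2009, 2106, 2118, 2119, 2120, 2156, 2170, 2177, 2258, 2343, 2344, 2450, 2540, 2557, 2568, 2577, 2590, 2614 and 2905. In all 10 libraries, knockdowns included, 22 stayed at 0.75 or more, and the exceptions were 2450 and 2905. The footprint was uneven along the region: nucleotides 2106 to 2177 held 7 protected positions in 72 nucleotides and 2540 to 2614 held 6 in 75, together 13 of 24. No protected position lay in the last 197 nucleotides, where the median flanking mean in ESCs was 26.8 ends. From 1775 to 1971, which held 1 protected position, 70 of 197 positions had an ESC flanking mean under 100.

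**Figure D1:**
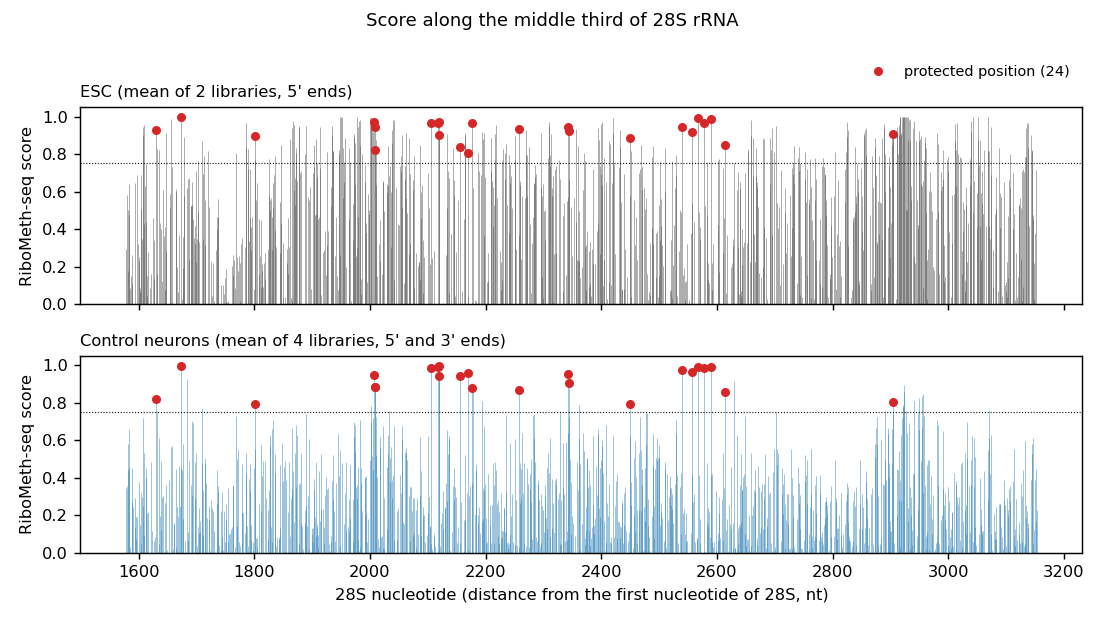
Mean RiboMeth-seq score (y, from 0 to 1) at each 28S nucleotide of the region (x, nucleotides from the start of 28S), for 2 ESC libraries (top) and 4 control neuron libraries (bottom). Red points are the 24 protected positions and the dotted line is the score of 0.75; 13 of the points fall in the 2 dense stretches from 2106 to 2177 and from 2540 to 2614, and ESCs show many more positions over the line than neurons do.

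The strongest protection was at 1673. Its read ends numbered 4 and 3 in ESCs, 118 and 171 in the Snord101-set controls, 73 and 75 with the Snord101 ASO, 54 and 73 in the Snord89-set controls and 56 and 92 with the Snord89 ASO. Flanking means were 1769 or more in ESCs and 15269.7 or more in neurons, so its score was 0.994 to 0.998 in every library. Both ESC libraries were the highest at 1673, by a small margin, and the neuron groups overlapped.

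The stretch from 2106 to 2177 included a run of 3 adjacent protected positions, 2118 to 2120. At 2119, the centre of the run, ends numbered 534 and 509 in ESCs, 165 and 344 in the Snord101-set controls, 184 and 132 with the Snord101 ASO, 96 and 76 in the Snord89-set controls and 60 and 430 with the Snord89 ASO. Its score was 0.972 and 0.971 in ESCs and 0.987 to 0.998 in neurons. Both ESC libraries were thus below all neuron libraries, and Snord89 ASO library B was the lowest of the neurons. The neighbours 2118 and 2120 had scores of 0.961 to 0.994 and of 0.896 to 0.946 over the 10 libraries. At 2106, 12 nucleotides before the run, the scores were 0.963 to 0.989.

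Within the same stretch, 2156 and 2170 were protected less in ESCs than in neurons. The score at 2156 was 0.837 in both ESC libraries and 0.932 to 0.953 in the 8 neuron libraries. At 2170 it was 0.815 and 0.794 in ESCs and 0.947 to 0.971 in neurons. ESC and neuron values did not overlap at either position, and 2177, 7 nucleotides further on, had the opposite order: 0.971 and 0.965 in ESCs against 0.845 to 0.939 in neurons.

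The stretch from 2540 to 2614 held 5 of the 10 highest mean scores over the 10 libraries, at 2568, 2590, 2577, 2540 and 2557. Scores over the 10 libraries ran from 0.988 to 0.996 at 2568, from 0.988 to 0.996 at 2590 and from 0.964 to 0.988 at 2577. At 2540 and 2557 they ran from 0.937 to 0.981 and from 0.916 to 0.971, with both ESC libraries below all neuron libraries. The last position of the stretch, 2614, was protected less, with scores of 0.823 to 0.876. The stretch from 2106 gave 3 more, 1673 was the highest and 2007 the last of the 10. That position is the first of 3 adjacent ones, and its score was 0.977 and 0.967 in ESCs and 0.882 to 0.970 in neurons.

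The positions with the lowest mean scores among the 24, from the lowest up, were 2905, 2450, 1801, 1630 and 2009. At 2905 the score was 0.936 and 0.874 in ESCs, 0.852 and 0.801 in the Snord101-set controls, 0.700 and 0.701 with the Snord101 ASO, 0.780 and 0.784 in the Snord89-set controls and 0.765 and 0.725 with the Snord89 ASO. At 2450 it was 0.886 and 0.885 in ESCs, 0.801 and 0.775 in the Snord101-set controls, 0.725 and 0.678 with the Snord101 ASO, and 0.790 to 0.808 in the 4 Snord89-set libraries. Both Snord101 ASO libraries were the lowest of the 10 at both positions. At 1630 the score was 0.934 and 0.920 in ESCs and 0.811 to 0.836 in neurons, and at 1801 it was 0.911 and 0.882 against 0.768 to 0.829. At 2009 ESCs and neurons overlapped, with 0.837 and 0.804 in ESCs and 0.832 to 0.898 in neurons. Over the 24 positions, both ESC libraries were above all 4 control neuron libraries at 8 and below all of them at 11. Over the 5702 positions of 45S with a flanking mean of 100 or more in these 6 libraries, ESCs were above at 35.5% and below at 23.9%.

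**Figure D2:**
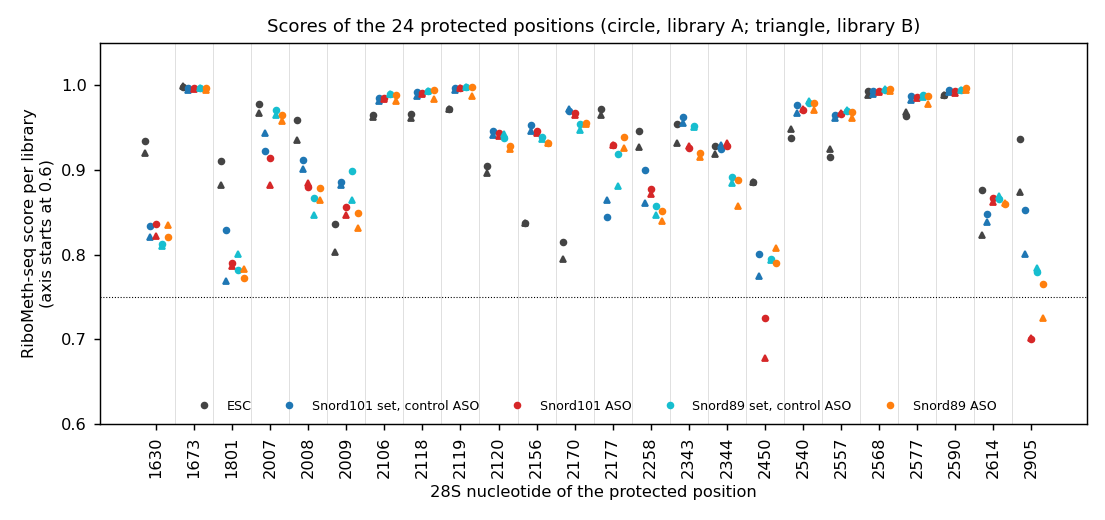
RiboMeth-seq score (y, axis from 0.6) of each library (circle for A, triangle for B, colour for the group) at the 24 protected positions (x, 28S nucleotide). Scores at 1673, 2568 and 2590 sit together near 1, while both Snord101 ASO libraries at 2450 and 2905, and Snord89 ASO library B at 2905, lie under the dotted line at 0.75.

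Adjacent protected positions formed 3 runs, 2007 to 2009, 2118 to 2120 and 2343 to 2344, and within a run each position enters the flanking mean of the others. With a window of 2 neighbours on each side, the mean score over ESCs and control neurons was 0.416 at 2008 against 0.903 with 6 neighbours, 0.379 at 2009 against 0.862 and 0.709 at 2344 against 0.913. At 2119 it was 0.974 against 0.988. The mean scores at 2008, 2009 and 2344 were thus under 0.75 with the shorter window and that at 2119 was not.

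ESCs alone reached 0.75 at many more positions than neurons. With the same flanking minimum, 137 positions of the region reached it in both ESC libraries, with 5.2% over all 45S positions, and 32 in all 4 control neuron libraries, with 1.64% over all. The 24 shared positions were 75.0% of the neuron list and 17.5% of the ESC list. At 64 positions (4.06%), with 3.58% over all 45S positions, the score was at least 0.75 in both ESC libraries and at most 0.25 in all 4 control neuron libraries, and 35 of these had a flanking mean of at least 100 in ESCs. The 5 with the largest difference were 1951, 2929, 1950, 2420 and 3051, and at 4 of them the ESC flanking mean was between 0.933 and 5.08 ends, at which a score is coarse. At 2420 there were 0 and 1 ends in ESCs with flanking means of 112 and 103, and the score was 1.00 and 0.990, against 0.0231 and 0 in the Snord101-set controls and 0 in both Snord89-set controls. An observed 0 allows up to 3 ends, or a score of 0.973, in ESC library A at this depth. At 3011, the next with a flanking mean of at least 100, ESC scores were 0.967 and 0.954 and the score was 0 in all 8 neuron libraries, where 5150 to 23461 ends were counted. The tables count different ends, and the part of this in the difference was not tested.

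In the opposite direction, 8 positions reached 0.75 in all 4 control neuron libraries and were not in the shared footprint. At 1683 the score was 0.605 and 0.633 in ESCs and 0.922 to 0.936 in neurons, and at 2179 it was 0.629 and 0.611 against 0.887 to 0.923. At 2362 it was 0.457 and 0.535 in ESCs and 0.781 to 0.809 in neurons. These 3 had ESC flanking means of 247 or more, and ESC and neuron values did not overlap. Position 2629 missed the footprint by its ESC library B, with 0.760 and 0.745 in ESCs and 0.906 to 0.934 in neurons. At 2923, 2924, 2955 and 2956 the ESC flanking mean was between 0.167 and 18.2 ends, so no ESC score can be read there. The last pair, 2955 and 2956, were the 2 positions with a score of at least 0.75 in all control neurons and at most 0.25 in ESCs.

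The Snord101 comparison was made to find positions whose protection depends on this snoRNA. Of the 24 protected positions, 1 passed the test, 2177, with a higher score. Its CPM, the ends scaled to the library's total of 45S ends, was 53.3 and 41.1 in the controls and 18.1 and 16.8 with the ASO, and its score was 0.845 and 0.865 in the controls and 0.929 in both ASO libraries. The groups did not overlap. In mean score it rose from 0.855 ± 0.0141 to 0.929 ± 3.43e-05 (SD, n = 2 each). Its log2 end ratio of -1.03 had an SE of 0.14 and a Benjamini-Hochberg adjusted p of 0.0249 by the quasi-likelihood test of edgeR. It did not pass with limma (adjusted p = 0.170), without Snord101 ASO library A (edgeR adjusted p = 0.367) or without library B (edgeR adjusted p = 0.152). The log2 end ratio compares ends relative to the flanking mean, ASO over control, and is negative where the score is higher. In the Snord89 set the score at 2177 was 0.919 and 0.881 in the controls and 0.939 and 0.926 with the ASO, which did not pass (edgeR adjusted p = 0.223).

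Across the region, 5 of 207 tested positions passed (2.42%), with 1.01% called over all 1583 tested positions. The test took positions whose score averaged 0.5 or more over the 4 libraries, on a flanking mean that averaged 10 or more. At an unadjusted p under 0.05 there were 43 in the region. More ends relative to neighbours, and so a lower score, were found at 3 (2395, 2457 and 2459, with 0.758% over all) and fewer at 2 (2165 and 2177, with 0.253% over all), whereas with library sizes scaled by TMM in place of the flanking mean 6 passed, 0 with more ends and 6 with fewer. The number of calls rested on single libraries: it was 19 without control A, 94 without control B and 0 without either Snord101 ASO library. By limma on the log2 ratio 0 passed (27 at an unadjusted p under 0.05), and by DESeq2 16 passed.

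The other called position with a higher score, 2165, lies 12 nucleotides before 2177. Its score was 0.440 and 0.592 in the controls, 0.723 and 0.742 with the Snord101 ASO, 0.533 and 0.517 in the Snord89-set controls, 0.551 and 0.553 with the Snord89 ASO and 0.920 and 0.906 in ESCs. The Snord101 ASO libraries were above the other 6 neuron libraries. The mean rose from 0.516 ± 0.108 to 0.733 ± 0.0130 (SD, n = 2 each), at a log2 end ratio of -0.86 with an SE of 0.15 (edgeR adjusted p = 0.0493). Without control A the log2 end ratio at 2165 was -0.61, and at 2177 it was -0.93. With a flanking minimum of 100 the adjusted p at 2165 was 0.0597 and without a score minimum it was 0.113. Read ends at 2174, which lies in the flanking window of 2177, were also fewer with the ASO, at 275 and 239 CPM against 791 and 465. In the Snord89 set they were 487 and 456 CPM with the ASO against 567 and 788 in the controls.

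At 2395 the score was 0.720 and 0.721 in the controls and 0.449 and 0.416 with the Snord101 ASO. The groups did not overlap, and the mean fell from 0.720 ± 0.00100 to 0.433 ± 0.0232 (SD, n = 2 each). Its ends relative to the flanking mean had a log2 ratio of 1.02 with an SE of 0.15 (edgeR adjusted p = 0.0276), against -0.0503 when TMM library sizes took the place of the flanking mean. Ends at 2395 itself were level, at 20.3 and 24.4 CPM in the controls and 20.1 and 22.9 with the ASO. Ends at 2392, a peak 3 nucleotides away, were 309 and 377 CPM in the controls and 68.5 and 100.98 with the ASO, and its share of the weighted flanking sum at 2395 was 38.0% and 38.3% in the controls and 16.7% and 22.8% with the ASO. In the Snord89 set the score at 2395 was 0.560 and 0.527 in the controls and 0.344 and 0.277 with the ASO, while ends at 2392 were 89.6 and 93.5 against 39.8 and 41.9 CPM. The part of the peak at 2392 in the lower scores at 2395 was not tested.

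The called positions 2457 and 2459 lie within 6 nucleotides of a peak of read ends, 2463. At 2457 the score was 0.671 and 0.601 in the controls and 0.375 and 0.417 with the ASO, and at 2459 it was 0.668 and 0.618 against 0.418 and 0.425. The groups did not overlap at either. The log2 end ratio was 0.73 at 2457 with an SE of 0.13 (edgeR adjusted p = 0.04998) and 0.69 at 2459 with an SE of 0.12 (edgeR adjusted p = 0.0402), and with TMM library sizes both turned negative, at -0.14 and -0.28. Own ends at 2457 were 63.0 and 65.1 CPM in the controls and 58.9 and 57.4 with the ASO, and at 2459 they were 80.8 and 77.9 against 64.6 and 65.9, without overlap at either. Ends at 2463 were 1219 and 922 CPM in the controls and 171 and 200 with the Snord101 ASO, and the groups did not overlap. In the Snord89 set they were 593 and 975 against 163 and 143. There the score was 0.314 and 0.430 in the controls and 0.111 and 0.157 with the ASO at 2457, and 0.517 and 0.590 against 0.344 and 0.296 at 2459. The mean scores were under 0.5, so the Snord89 test with the score minimum left both out. Without that minimum neither passed for Snord89. The log2 end ratio was 0.46 at 2457 (edgeR adjusted p = 0.144) and 0.61 at 2459 (edgeR adjusted p = 0.0534). In the Snord101 comparison 2457 and 2459 were not tested without control A, and 2457 was not without control B, since the mean score was then under 0.5. Neither passed for Snord101 without a score minimum (edgeR adjusted p = 0.0942 and 0.0731).

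**Figure D3:**
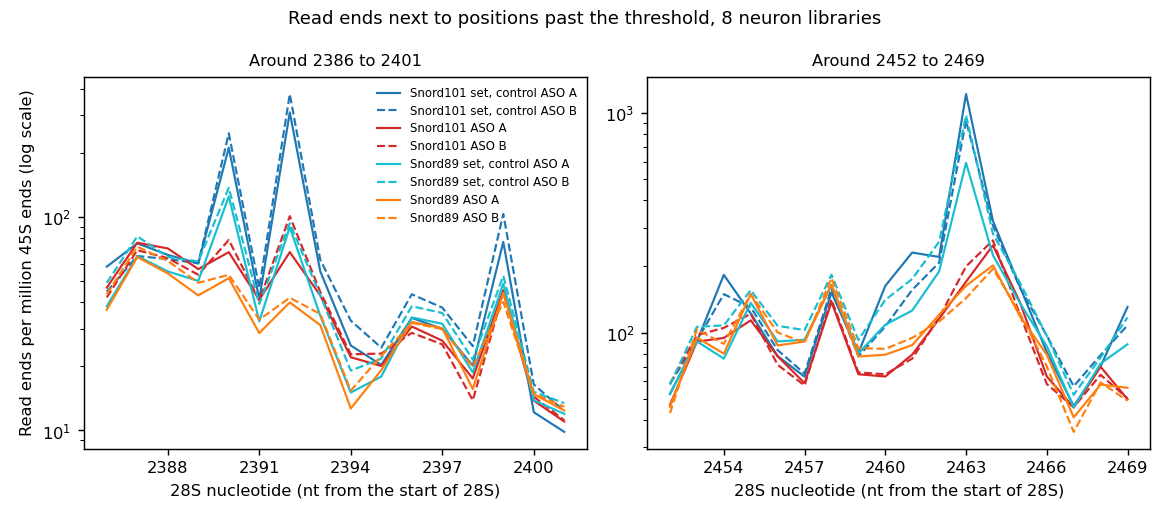
Read ends in CPM of 45S ends (y, log scale) by 28S nucleotide (x) around 2395 (left) and around 2457 and 2459 (right), 1 line for each of the 8 neuron libraries, with colour for the group and dashes for library B. The peaks at 2392 and 2463 are lower in the libraries with a targeting ASO than in the controls of the same set, while the lines at 2395 lie together.

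By size of difference, lower scores outnumbered higher ones in the Snord101 comparison. The score was lower by at least 0.1 with no overlap between the groups at 46 of the 207 positions (22.2%), with 14.8% over all tested 45S positions, and higher by as much at 2 (0.966%), with 3.73% over all. Of the 46, 19 lay between 2760 and 2956, where 32 positions were tested and the median score difference was -0.131. Without control A 17 were lower, without control B 77, and with the flanking median in place of the mean 10 were lower and 4 higher. The stretch from 2760 to 2956 holds a peak of read ends at 2926, with 926 CPM in control A, 261 in control B, 67.4 and 75.7 with the Snord101 ASO and 51.7 to 120 in the 4 Snord89-set libraries. Control A was the highest library there and control B the next. Of 43 positions at 0.75 or more in both controls, a choice that by itself favours lower scores in the other group, 6 were lower by 0.1, beside 53 of 358 (14.8%) over all 45S positions chosen likewise: 2905, 2921, 2922, 2923, 2955 and 2956, and 0 of these passed the test (lowest edgeR adjusted p = 0.0728, at 2955). At 2921, the one with the largest difference, the score was 0.934 in control A, 0.797 in control B and 0.616 and 0.566 with the ASO, with own ends of 6.70 and 6.33 CPM in the controls and 6.13 and 6.98 with the ASO. The share of its flanking sum that came from 2926 was 60.8% and 55.8% in the controls and 28.2% and 31.4% with the ASO.

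Near a score of 1 a difference of 0.1 in score takes a large relative change in ends over the flanking mean. Strongly protected positions are thus given by the log2 end ratio as well, which moves with the neighbours too. Of 19 positions at 0.9 or more in both controls, 0 were lower by 0.1 with the Snord101 ASO, beside 5 of 155 (3.23%) over all 45S positions, and the largest negative difference was -0.0346 at 2007, with 0.922 and 0.943 in the controls and 0.914 and 0.882 with the ASO (log2 end ratio 0.59, edgeR adjusted p = 0.352). Over the 24 protected positions the median score difference was -0.000352, and the median log2 end ratio was 0.03, beside 0.07 over all tested positions. The highest log2 end ratio among the 24 was 0.82 at 2343, which did not pass. Unscaled ends there were 373 and 348 in the controls and 390 and 302 with the ASO. The flanking means were 9838 and 7804 against 5266 and 4220. The largest score differences were -0.126 at 2905 (edgeR adjusted p = 0.101), -0.0865 at 2450 (0.204) and 0.0742 at 2177, followed by 2007 and 2009. Own ends at 2905 were 15.9 and 10.1 CPM in the controls and 12.0 and 13.5 with the ASO. Ends at 2910, in its flanking window, were 395 and 159 CPM against 52.7 and 55.8. The share of the flanking sum at 2905 from 2910 was 24.5% and 20.8% against 8.81% and 8.21%. Ends at 2445, in the flanking window of 2450, were 218 and 241 CPM against 102 and 119. The part of these neighbours in the lower scores was not tested. For orientation, 28S nucleotide 3283, which is 130 nucleotides past the end of the region, had scores of 0.984 and 0.975 in the same controls and 0 in both Snord101 ASO libraries.

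With the Snord89 ASO, no position of the region with a mean score of 0.5 or more was called. Of 196 such positions, 0 passed edgeR's quasi-likelihood test, with 0.546% called over all 1465 tested positions. At an unadjusted p under 0.05 there were 27, limma called 0 and DESeq2 called 5. The count was 27 without Snord89 ASO library A, 10 without control A, 5 without ASO library B and 0 without control B. Scores lower by at least 0.1 with no overlap were found at 6 positions (3.06%), with 6.42% over all, and scores higher by as much at 0, with 4.71% over all.

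Of the 24 protected positions, 0 passed with the Snord89 ASO in edgeR, and 4 had an unadjusted p under 0.05. Their median score difference was -0.00514, and their median log2 end ratio was 0.20, beside 0.03 over all tested positions. The highest log2 end ratio was at 2119, at 1.74 with an SE of 0.72 (edgeR adjusted p = 0.383), where ASO library B had 430 ends and library A 60. The next were 0.74 at 2343, 0.66 at 2118 and 0.51 at 2106, which did not pass either. In score, the largest differences were -0.0411 at 2009, -0.0371 at 2905, -0.0333 at 2343, 0.0323 at 2177 and 0.0163 at 1630. At 2343, the lowest relative to its controls among the 16 positions at 0.9 or more (0 lower by 0.1, beside 1.46% over all 45S positions), the score was 0.952 and 0.94997 in the controls and 0.920 and 0.915 with the ASO. These groups did not overlap, and the difference did not pass (edgeR adjusted p = 0.169). In the Snord101 set, 2343 was 0.962 and 0.955 in the controls and 0.926 and 0.928 with the ASO, also without overlap and without passing (edgeR adjusted p = 0.106). Of 42 positions at 0.75 or more in both Snord89-set controls, again a choice that favours lower scores in the other group, 2939 and 2940 were lower by 0.1, beside 14 of 293 (4.78%) over all 45S positions, from 0.845 ± 0.0467 to 0.744 ± 0.0220 and from 0.877 ± 0.0264 to 0.767 ± 0.0192 (SD, n = 2 each). At 2939 the score was 0 in all 4 libraries of the Snord101 set.

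A difference between the effects of the ASOs was tested by an interaction contrast over both sets in edgeR. Of 178 tested positions 0 passed, with 0.0725% called over all 1380, 18 had an unadjusted p under 0.05, limma called 0, and without a score minimum 0 of 1576 passed, with 0.0693% over all (169 at an unadjusted p under 0.05). Without control B of the Snord101 set 36 passed, and without Snord89 ASO library A 1 passed. Over the 149 positions tested in both comparisons, which share no library, 98 (65.8%) had log2 end ratios of the same sign, and Pearson's r across these positions was 0.238. Most ratios were above 0 in each comparison, so signs would often match without a shared effect.

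**Figure D4:**
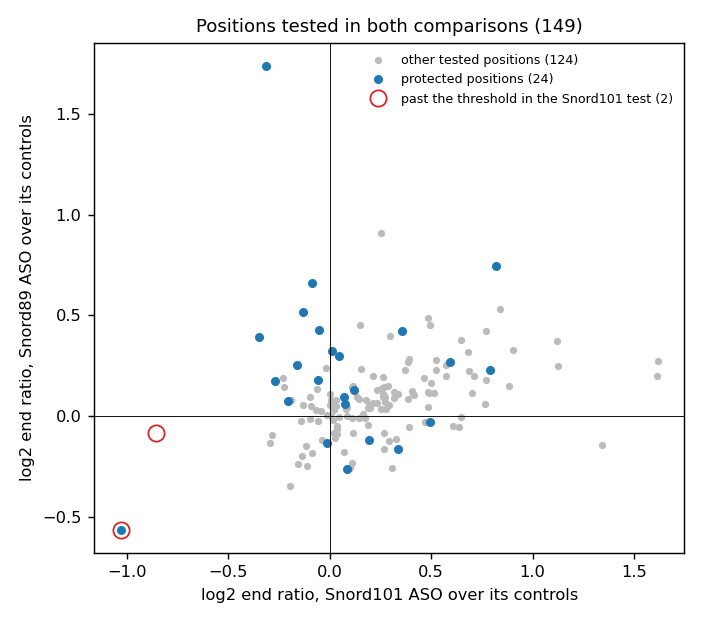
Log2 end ratio at the 149 positions tested in both comparisons, Snord101 ASO over its controls (x) against Snord89 ASO over its controls (y). Blue points are the 24 protected positions and red circles the 2 positions past the Snord101 threshold that were tested in both, of which 2177 is the lowest point on both axes.

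The fit without a score minimum took in the positions with a mean score under 0.5, which the test above leaves out, beside all others. It called 13 of 1576 positions of the region for Snord101 (0.825%, with 0.369% over all 45S positions tested), 2177 and 2395 among them. For Snord89 it called 10 (0.635%, with 0.297% over all 45S and U2 positions tested). The lists shared 5 positions, 38.5% of the first and 50.0% of the second, and at each the sign was the same in both. Over all positions the lists shared 19, or 39.6% and 48.7%, so the shares in the region were near those over all. At 2463 the log2 end ratio was -1.96 with the Snord101 ASO (edgeR adjusted p = 0.00925) and -1.87 with the Snord89 ASO (edgeR adjusted p = 0.00184). At 2390 it was -0.92 and -1.01, at 2289 it was -0.87 and -0.76 and at 2445 it was -1.002 and -0.46. At 2464, next to the peak 2463, it was 1.02 and 0.70. Ends at 2289 were 256 and 269.8 CPM in the Snord101-set controls, 105 and 117 with the Snord101 ASO, 181 and 181 in the Snord89-set controls and 108 and 104 with the Snord89 ASO. At 2464 own ends were 322 and 307 CPM in the Snord101-set controls, 250 and 263 with the Snord101 ASO, 225 and 282 in the Snord89-set controls and 202 and 195 with the Snord89 ASO. They were thus lower with each ASO while the ratio to the flanking mean, which includes 2463, was higher. The score at 2289, 2463 and 2464 was 0 in every library, ESCs included, so the ratios there do not describe protection.

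The control libraries of the Snord101 and Snord89 sets, which all had a non-targeting ASO, gave more called positions than either ASO against its own controls. Of 202 tested positions 29 passed (14.4%), with 14.8% called over all 1542, and 74 had an unadjusted p under 0.05. Without a score minimum 159 of 1576 passed, with 7.38% over all. In the Snord101-set controls 10 had more ends (3.96% over all) and 19 fewer (10.8% over all), against 29 and 21 when the flanking median replaced the mean. Without control A of the Snord101 set 84 passed and without control B 125, and without control A or B of the Snord89 set 13 and 18. At 1609, which had the largest score difference among the 29, the score was 0.794 and 0.745 in the Snord101-set controls and 0.233 and 0.362 in the Snord89-set controls, with 0.955 and 0.961 in ESCs. Its log2 end ratio of -1.61 had an SE of 0.16 (edgeR adjusted p = 0.00308). Its neighbour 1608 was 0.895 and 0.882 against 0.520 and 0.587 (edgeR adjusted p = 0.00160). At 2339 the order was reversed, with 0.399 and 0.415 against 0.802 and 0.738 (edgeR adjusted p = 0.00527). The sets did not overlap at these 3 positions. The libraries with a targeting ASO followed their own set at 1609, at 0.794 and 0.822 in the Snord101 set and 0.308 and 0.338 in the Snord89 set. The other 7 of the 10 largest among the 29 were 2002, 3029, 2041, 2948, 1581, 3071 and 2006, higher in the Snord101-set controls at 5 and lower at 3071 and 2006. Among the positions called lower with the Snord101 ASO, 2395 and 2457 were also in the 29. At 2395 the score was 0.720 and 0.721 in the Snord101-set controls against 0.560 and 0.527 (edgeR adjusted p = 0.0198). At 2457 it was 0.671 and 0.601 against 0.314 and 0.430 (edgeR adjusted p = 0.0163). Position 2459 did not pass (edgeR adjusted p = 0.130). Of the 24 protected positions, 1 passed, 2170, at 0.971 ± 0.000934 against 0.951 ± 0.00467 (SD, n = 2 each; edgeR adjusted p = 0.0224).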

How the data were processed

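Per the file headers, the authors deposited counts of read ends per position and library (5′ ends in ESCs, 5′ plus 3′ ends in neurons) and a score per library, a fraction from 0 to 1. Trim Galore, cutadapt, Bowtie2 and bedtools are named in the submitters' processing notes, with settings, reference and build not given in the sources used here. The deposited fraction was recomputed from the counts with weights from 1.0 (nearest) to 0.5 (farthest) and was within 1e-06 at 100% of compared positions of the region. The authors' mean and spread columns were not used.

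Ends were tested with edgeR 4.0.16 (R 4.3.3), the log flanking mean as offset, over the whole table, with adjusted p under 0.05. SE was taken as the size of the log2 ratio divided by the root of the F statistic. Alternatives used limma 3.58.1 (pseudocount 0.5) and DESeq2 1.42.0. With 2 libraries against 2, an exact permutation test cannot go below p = 0.333. Labels say biological replicates without naming separate cultures.

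Members and lists were chosen with earlier results of these data known. Named were the protected positions, called positions by score difference (up to 10), the largest ESC-neuron and ASO-control differences, and runs. Positions 3283, 2174, 2392, 2445, 2463, 2910, 2926 and the lists by control score were chosen after their values were seen. Other ASO sequences are not reported here.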

Additional observations from a re-analysis of the deposited data

How the results depend on the processing

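The 24 protected positions numbered 81 at a score of 0.5, 11 at 0.9 and 137 when only ESCs were required, and 24 to 27 when 1 library was left out.

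Calls for Snord101, 5 at first, numbered 2 when the flanking mean had to reach 100, 13 without a score minimum, 3 with the flanking median, 0 with limma, 16 with DESeq2 and 0 to 94 when 1 library was left out. For Snord89, 0 became 10 without a score minimum, 5 with DESeq2 and 0 to 27 when 1 library was left out. The 29 between control sets became 159, 50 with the median, 10 with the window of 2 positions, 6 with limma and 13 to 125 when 1 library was left out. The interaction, 0 at first, gave 0 to 36 when 1 library was left out.

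With the replicate letter as a replicate block, 8 passed for Snord101, 0 for Snord89, 0 for the interaction and 40 between control sets. Deviations of same-lettered libraries correlated at -0.123, 0.116 and -0.531 in the Snord101, Snord89 and control-set comparisons, and the labels do not say that letters pair libraries.

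Positions lower by 0.1 for Snord101 (46) numbered 70 at 0.05, 12 at 0.2, 209 without a score minimum, 10 with the median and 17 to 77 when 1 library was left out; higher ones (2) numbered 5, 1, 44, 4 and 2 to 4. For Snord89, lower ones (6) numbered 27, 1, 54, 7 and 4 to 17, and higher ones (0) 6, 0, 26, 1 and 0 to 4.

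With TMM library sizes, a scaling that leaves the neighbours out, the log2 end ratio was -0.0503 at 2395, -0.14 at 2457 and -0.28 at 2459. Where leaving out a library left 1 in its group, that library was assumed to vary like the other group. The causes of the changes in this section were not tested. Depth limits ESC scores most in nucleotides 2760 to 3153. It also does so at 70 of 197 positions from 1775 to 1971 and at 57 of 197 from 2563 to 2759, where the flanking mean was under 100.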
